A study of Homo sapiens with 6 samples.

Results

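SU-DHL-2 is an established cell line of diffuse large B-cell lymphoma (DLBCL), a tumor of mature B cells. RNA was taken from 6 cultures of the line, 3 with interleukin-17A (IL-17A) and 3 without it, each grown for 72 h and hybridized to 1 single-colour Whole Human Genome array. The data described here are the 3 untreated cultures, chosen by their titles, out of the 6 samples in all, and no treated culture enters any value. Untreated cells grew in RPMI medium with fetal bovine serum, glutamine, penicillin and streptomycin, with no added cytokine, and the labels name no genetic change to the line. The 3 samples come from a single line and represent neither other lymphomas nor patients. Nothing in the labels says that they were grown from separate thaws, so the spread between them may be technical.

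The lymphoma cells of DLBCL keep parts of the program of the B cell they arose from. A B cell carries a B-cell receptor whose signaling subunits are CD79A and CD79B, and its identity is held by transcription factors such as PAX5, EBF1, TCF3 and POU2AF1. In the germinal centre BCL6 represses the exit to the plasma cell, while IRF4, PRDM1 and XBP1 drive that exit. DLBCL is commonly split into a germinal-centre B-cell-like and an activated B-cell-like class, the latter known for active NF-kB signaling, and SU-DHL-2 is commonly grouped with the activated B-cell-like lines. The arrays measure RNA only, and the identity of the line was not tested.

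The level of a gene is given as the log2 intensity of its probe after quantile normalization over the 3 arrays, so that 1 unit is a doubling of signal. A probe was taken as above background when the scanner software marked it as both positive and significant and well above background on all 3 arrays. A gene was above background when at least 1 of its probes was, not above background when none of its probes was marked on any array, and in between otherwise. On a linear scale, the lowest signal marked as well above background was 4.61, 4.46 and 4.50 on arrays 1 to 3, and the highest signal without that mark was 6.33, 6.30 and 6.33. No spot was saturated. The arrays measured 34126 probes with a value, of which 22911 (67.1%) were above background on all 3 arrays and 9103 on none. Of 19740 named genes, 14252 (72.2%) were above background, 4452 (22.6%) were not above background, and 1036 (5.25%) lay in between. The shares of 72.2% and 22.6% are the background against which every list of genes below is to be read.

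The genes above background had a median level of 7.97, with quartiles at 5.53 and 9.88 and a 95th percentile at 12.36. A level under 4, close to the background, was held by 1700 of them (11.9%), and 926 (6.50%) had a level of 12 or more. Probes differ in how brightly they report a transcript. In 3372 genes with several probes above background, the brightest and the dimmest probe of a gene lay a median of 2.27 log2 units apart, and in 55.5% of them over 2 units apart. A level therefore describes a gene's own brightest probe, and the order of levels between genes is not an order of transcript amounts. In 686 genes a probe above background stood beside a probe that was not.

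**Figure D1:**
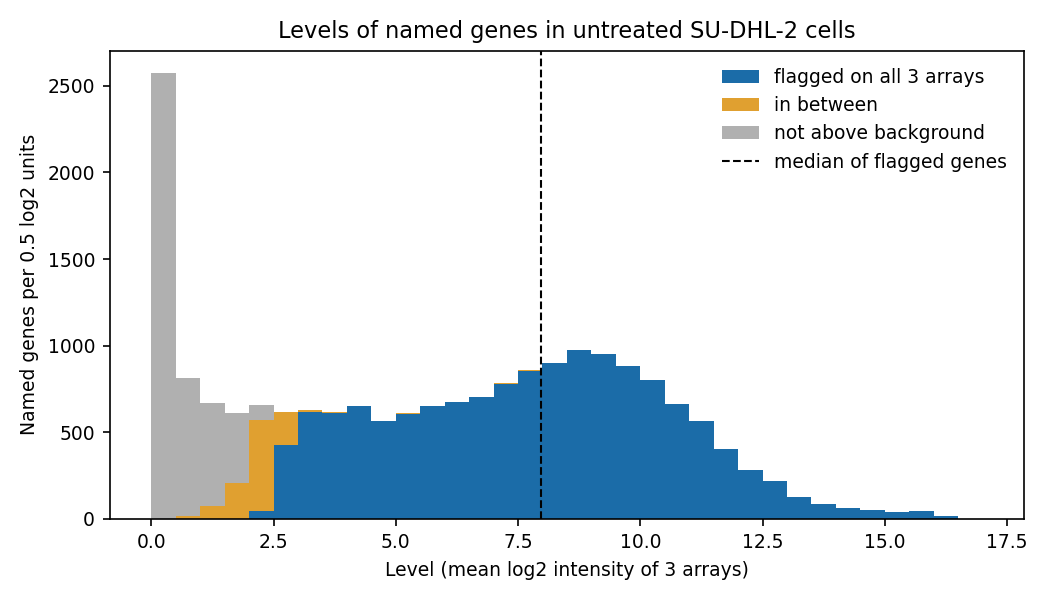
Number of named genes (y axis) by level (x axis, mean log2 intensity of the 3 untreated arrays, bins of 0.5 units), stacked by whether the gene was above background on all 3 arrays, in between or not above background. The 14252 genes above background spread around a median of 7.97 (dashed line), and the 4452 genes not above background gather at the floor of 0.

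Genes that define a B cell were bright in these cultures. All 21 genes of a list for B-cell identity were above background, against 72.2% of all named genes, and 15 of the 21 were at or above the median level of genes above background, against 36.1%. CD79A gave 13.76, 13.76 and 13.72 on the 3 arrays (mean 13.75, SD 0.02, n = 3), and its partner CD79B gave 12.82, 12.77 and 12.72. All 3 cultures were bright for both genes, with no culture apart from the others.

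Other members of the identity list ranged from bright to dim. VPREB3, a protein that binds the immunoglobulin heavy chain in the endoplasmic reticulum, had a level of 13.73 (SD 0.02), CD24, a glycosylated adhesion protein, 12.97, and the SRC-family kinase BLK 12.35 (SD 0.16). MS4A1, which encodes the rituximab target CD20, gave 9.09, 9.22 and 9.26 (mean 9.19, SD 0.09). Its probe stood at the 65.9th percentile of genes above background. FCRL1, an Fc receptor-like protein of B cells, was dim at 5.03, and TNFRSF13C, the BAFF receptor, was at 6.91. PAX5, the factor that commits a cell to the B lineage, was the dimmest member, at 3.86, 3.51 and 3.73 on its single probe. That is above background on every array but under a level of 4. PAX5 is known to activate CD79A.

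All 22 B-cell and germinal-centre transcription factors were above background, 18 of them at or above the median level, with a median of 10.95. TCF3, which encodes the E proteins E12 and E47, reached 15.10 (SD 0.09) and POU2AF1, the B-cell coactivator of octamer-binding factors, 14.58 (SD 0.11). IRF8 reached 13.77, MEF2B 13.01 and IKZF1 12.79, all of them factors known from germinal-centre or lymphoid cells. BCL6, the master repressor of the germinal centre, gave 12.10, 12.05 and 12.04. BACH2, which holds back plasma-cell differentiation, was at 12.49, and FOXP1 at 12.43 on the brightest of its 3 probes. EBF1 was at 11.12, but its other 2 probes gave 7.79 and 5.06. POU2F2, the octamer-binding factor OCT2, was at 5.81 on its brighter probe.

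The octamer, ATGCAAAT, is the DNA element that POU2F1 and POU2F2 bind, and it was searched on both strands in RefSeq promoter windows of GRCh38.p14, each running from 250 bases before a gene's start to 50 bases after it. It was present in 623 of 35116 windows (1.77%). Counted by gene, 330 of the 15333 named genes with a window (2.15%) held it in at least 1 window. Of 81 genes of the 6 B-lineage lists with a window, out of 103 measured, 8 held it in a window, and these were VPREB3, CD53, MEF2B, MEF2C, PRKCB, SERPINA9, P2RY8 and PIM2. All 8 were above background, from SERPINA9 at 3.70 to VPREB3 at 13.73. The 6 lists had 93.75% to 100% of their measured members above background, so this count was nearly fixed by the choice of lists. Of 90 further genes of the 9 lists for other lineages, 1 held it, the epithelial factor ELF3, which was not above background on any array. These are counts of letters, with no test, for a motif picked after others had been searched, and they say nothing of binding. The windows of 3 bright B-lineage genes and of ELF3 are printed 5′ to 3′ on the gene's strand, with the octamer or its reverse complement in capitals, to show the element in genes on either side of the background.
VPREB3, chr22:23754376-23754675, minus strand: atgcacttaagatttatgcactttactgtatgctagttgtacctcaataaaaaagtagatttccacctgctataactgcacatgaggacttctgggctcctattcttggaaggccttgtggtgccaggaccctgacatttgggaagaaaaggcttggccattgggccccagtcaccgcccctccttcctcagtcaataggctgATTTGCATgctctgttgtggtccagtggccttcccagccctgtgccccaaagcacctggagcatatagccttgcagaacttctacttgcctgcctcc
PRKCB, chr16:23835733-23836032, plus strand: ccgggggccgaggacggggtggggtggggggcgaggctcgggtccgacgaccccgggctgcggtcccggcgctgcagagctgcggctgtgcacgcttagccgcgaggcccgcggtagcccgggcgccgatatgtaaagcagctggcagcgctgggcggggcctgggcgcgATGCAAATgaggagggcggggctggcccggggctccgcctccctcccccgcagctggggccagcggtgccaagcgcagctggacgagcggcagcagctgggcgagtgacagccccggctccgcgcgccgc
PIM2, chrX:48918975-48919274, minus strand: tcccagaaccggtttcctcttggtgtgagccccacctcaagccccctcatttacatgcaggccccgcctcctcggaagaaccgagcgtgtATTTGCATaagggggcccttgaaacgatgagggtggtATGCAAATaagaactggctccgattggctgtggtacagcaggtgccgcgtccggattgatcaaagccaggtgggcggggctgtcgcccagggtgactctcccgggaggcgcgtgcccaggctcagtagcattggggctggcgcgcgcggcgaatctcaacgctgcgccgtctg
ELF3, chr1:202010337-202010636, plus strand: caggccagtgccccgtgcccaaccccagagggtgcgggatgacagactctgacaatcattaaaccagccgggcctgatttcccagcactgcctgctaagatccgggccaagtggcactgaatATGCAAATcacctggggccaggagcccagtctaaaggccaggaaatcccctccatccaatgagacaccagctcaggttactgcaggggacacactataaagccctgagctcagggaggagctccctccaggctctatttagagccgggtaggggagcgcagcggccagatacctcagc

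RNA for B-cell receptor signaling was above background from the chains CD79A and CD79B to the effectors. The list holds no immunoglobulin gene. All 21 listed genes were above background, 18 at or above the median level, and none had a level under 4. Below the receptor chains, the kinases SYK and BTK were at 12.02 and 11.97, the adaptor BLNK at 11.23 and the kinase LYN at 10.74. The phospholipase PLCG2 was at 12.43 and protein kinase C beta, PRKCB, at 10.28. The lipid phosphatase INPP5D, which opposes the pathway, was at 12.44. BCL10 and MALT1, which link the receptor to NF-kB, were at 8.02 and 6.29.

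Genes of both DLBCL classes were above background. All 18 genes of the germinal-centre B-cell-like list were above background, with a median level of 10.41, and 13 of them lay at or above the median of genes above background. They include IRAG2 (listed as LRMP) at 13.70, RGS13, a regulator of chemokine receptor signaling, at 12.17, and GNA13 at 11.88. S1PR2, the receptor that keeps B cells within the germinal centre, was at 10.43 and its relative in that role, P2RY8, at 10.38. MME, which encodes CD10, was at 9.24. LMO2 was dim at 4.53, and SERPINA9 dimmer at 3.70.

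Of 20 genes of the activated B-cell-like list, 19 were above background, with a median level of 8.34 among them, and 12 were at or above the median of genes above background. IRF4 gave 9.46, 9.38 and 9.39, and FOXP1, which is also counted among the B-cell factors, was the brightest member at 12.43. The phosphatase PTPN1 was at 11.58, and the kinases PIM2 and PIM1 were at 10.10 and 8.98. BCL2, the anti-apoptotic gene, was at 8.30 on its brighter probe and at 4.84 on the other. CCND2, which encodes cyclin D2, was the exception, with values of 0, 0.52 and 0 and no mark on any array. Its level is therefore not well above background, which bounds the signal of 1 probe and does not show that the transcript is absent. CD44, a homing receptor, was dim at 4.08. The lists share no gene, and since each median runs over different probes, the gap between them is not a measure of the cell's class. BCL6, MME and S1PR2, known as genes of germinal-centre cells, were above the median level on all 3 arrays. LMO2 and SERPINA9, of the same list, were under it. Members of both lists reached that median, 13 of 18 in the germinal-centre B-cell-like list and 12 of 20 in the activated B-cell-like list. The class of the line, commonly grouped as activated B-cell-like, was not tested.

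Plasma-cell genes were above background in 15 of 16, with a median of 10.76. JCHAIN, which joins polymeric antibodies, had a level of 14.63 (SD 0.03) and MZB1, a chaperone of antibody assembly, 13.43. XBP1 gave 10.74, 10.77 and 10.80, and the secretory-pathway genes HSP90B1, TXNDC5, FKBP11 and SSR4 lay between 11.68 and 13.69. PRDM1, the factor that completes plasma-cell differentiation, was low, at 5.58, 5.59 and 5.75 on its brighter probe, and its other probe, at 2.55, was marked on 2 arrays. The plasma-cell surface protein SDC1 (CD138) was at 6.14. SLAMF7 was marked on 1 array.

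**Figure D2:**
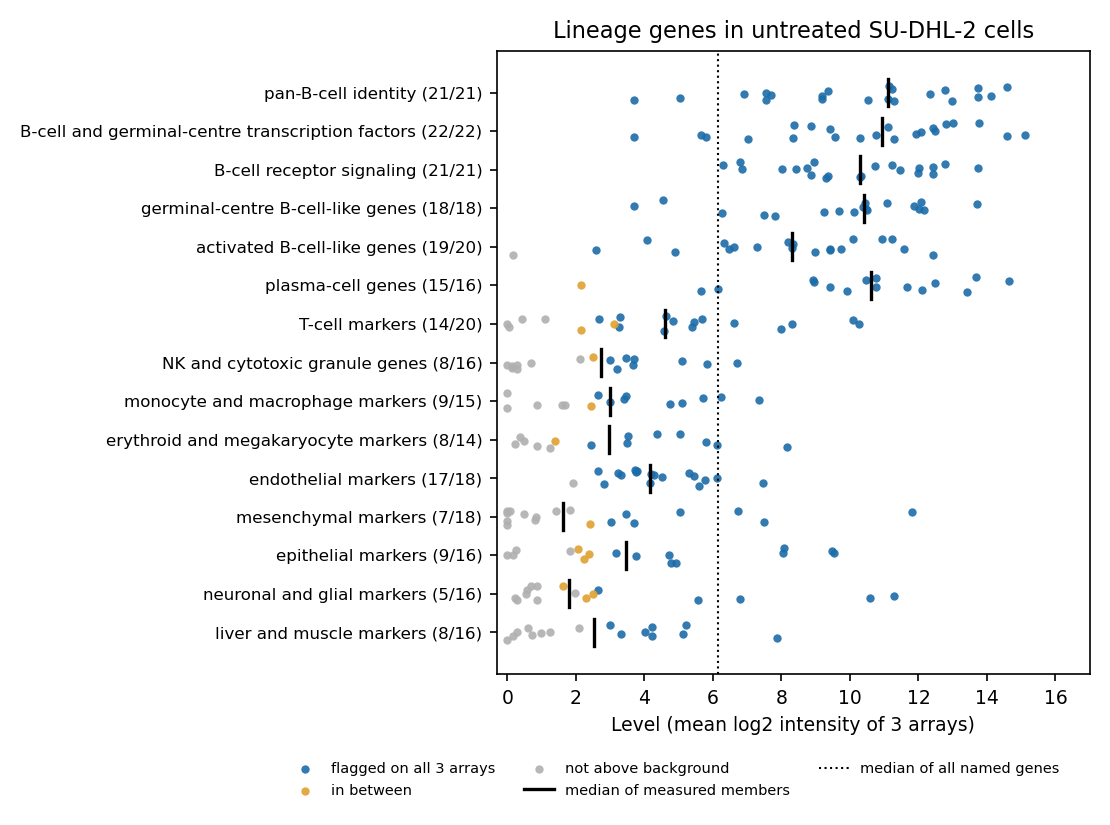
Levels (x axis, mean log2 intensity of the 3 untreated arrays) of the measured members of 15 lineage lists (y axis, with the number above background and the number measured), 1 point per gene, black bars for the median over measured members and a dotted line for the median of all named genes. The 6 B-lineage lists have medians from 8.32 to 11.12, and the 9 lists for other lineages have medians from 1.62 to 4.61.

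Markers of other cell types were dim or at background for the most part, with a few bright genes among them. Of 20 T-cell markers 14 were above background, near the share of all genes, but only 4 reached the median level of genes above background. Those 4 were the kinase LCK at 10.28, CD4 at 10.09, the adaptor LAT at 8.30 and the factor TCF7 at 7.99. The chains of the T-cell receptor complex were low. CD3E gave 3.12, 3.35 and 3.33, CD3D was at 5.40, CD3G at 6.62 and CD247 at 4.63. CD5, TRAT1 and GATA3 were not above background on any array.

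Genes of natural killer cells and cytotoxic granules were above background in 8 of 16, and none reached the median level. The brightest was KLRK1, the receptor NKG2D, at 6.72. GZMA, GZMK, KLRD1, NCAM1, FCGR3A, FASLG and CTSW were not above background. Of 15 monocyte and macrophage markers 9 were above background, with FCER1G, the gamma chain of Fc receptors, highest at 7.35. CD163, CSF1R, S100A8, S100A9 and MRC1 were not above background. Of 14 erythroid and megakaryocyte markers 8 were above background. HBB, GYPB, GATA1, PF4 and PPBP were not above background.

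Endothelial markers were mostly above background and dim. Of 18 markers 17 were above background, yet none reached the median level of genes above background, and 7 lay under a level of 4. PECAM1, which lymphoid cells also express, was the brightest at 7.47, VWF was at 6.13 and CDH5, the cadherin of endothelial junctions, at 5.44. KDR, the main receptor of VEGF-A, was not above background. The median SD of the 17 genes was 0.21, beside 0.20 over all genes with a level under 4 and 0.08 over those from 4 to 8. ROBO4 at 5.77 (SD 0.67) and EGFL7 at 5.59 (SD 0.47) varied most.

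Of 18 mesenchymal markers 7 were above background, or 12 with the positive-and-significant mark alone. The calcium-binding protein S100A4 was at 11.83, the intermediate filament gene VIM at 7.49 (SD 0.44), COL5A1 at 6.73, TAGLN at 5.05, COL1A1 at 3.70, ACTA2 at 3.46 and FBN1 at 3.04. The other probe of COL5A1, at 0.69, was not marked on any array. Neither S100A4 nor VIM is restricted to mesenchyme. COL1A2, COL3A1, FN1, DCN, LUM, PDGFRA, THY1 and POSTN were not above background. Genes of this list, both above and not above background here, are known from bone-marrow stromal cells, the partner of the line in the study's co-cultures. The cultures measured here contained the line alone.

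Of 16 epithelial markers 9 were above background. The adhesion molecule EPCAM was at 9.53 (SD 0.02) and the keratins KRT7, KRT18 and KRT8 were at 9.48, 8.08 and 8.05, all at or above the median level of genes above background. CDH1, KRT5, KRT14 and ELF3 were not above background. Among 16 neuronal and glial markers 5 were above background, or 9 with the positive-and-significant mark alone. The 5 included TUBB3, a tubulin, at 11.30, MBP, whose locus also gives transcripts in blood cells, at 10.59, SLC17A7 at 6.79 and SNAP25 at 5.55. SYP, STMN2, NEFL, NEFM, MAP2, GAD1, GFAP and OLIG2 were not above background. Liver and muscle markers were above background in 8 of 16, none at the median level, with SERPINA1 highest at 7.87. APOA2, TTR, FGB, CYP3A4, MYH7, MYH2, ACTC1 and CKM were not above background.

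**Figure D3:**
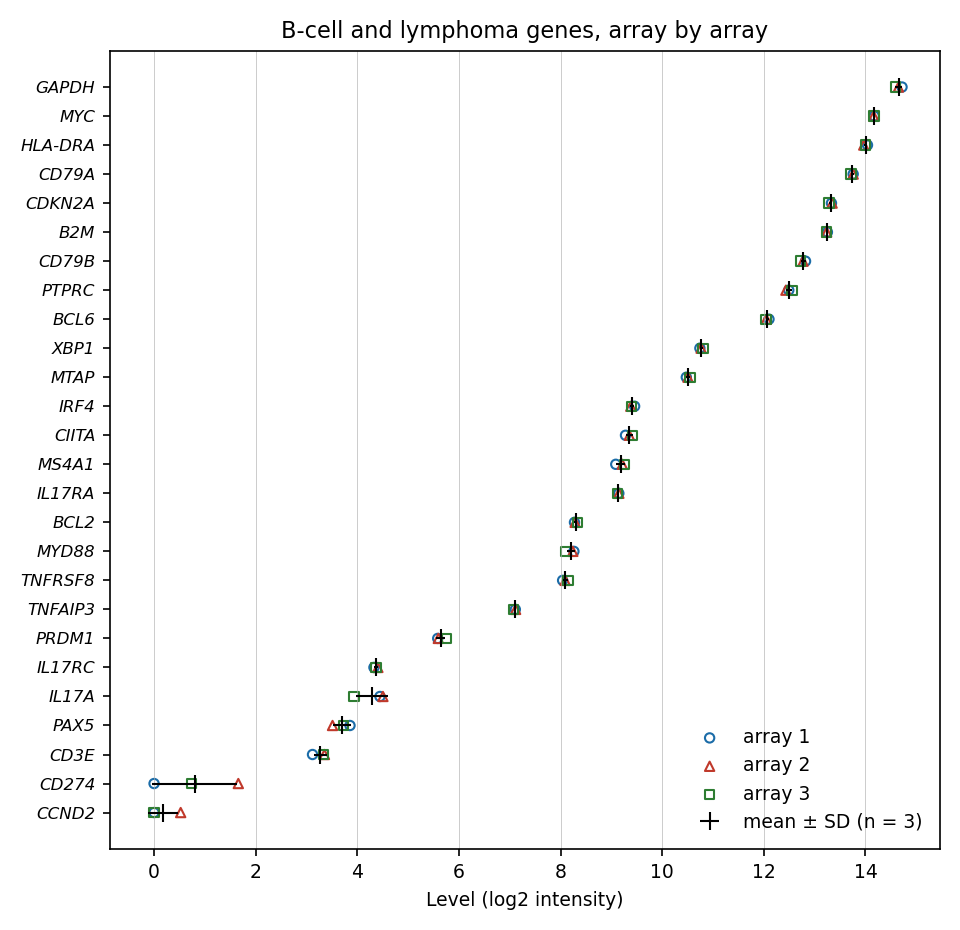
Levels (x axis, log2 intensity) of 26 B-cell, lymphoma, cytokine and control genes on each of the 3 untreated arrays (open symbols), with the mean and SD (n = 3). For bright genes the arrays nearly coincide, as for MYC with an SD of 0.01, and they part for dim ones, as for CD274 between 0 and 1.66.

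Genes of antigen presentation were bright. All 18 genes of MHC class I presentation were above background and all 18 reached the median level, against 36.1% of named genes. HLA-B was at 15.64 and HLA-C at 14.78, and B2M, the light chain common to them, gave 13.25, 13.24 and 13.23. The HLA genes are close in sequence, so that a probe of one may also bind transcripts of another. The peptide transporter genes TAP1 and TAP2 were at 10.73 and 9.14, and NLRC5, the activator of class I genes, was at 8.26. All 17 class II genes were above background. HLA-DRA gave 14.04, 13.97 and 14.00, and HLA-DPA1 was at 13.42. CIITA, the activator on which class II genes depend, gave 9.28, 9.35 and 9.42 on its brighter probe and 4.50 on the other. LGMN, a protease of antigen processing, was the lowest at 5.88. In the gene order of GRCh38.p14, 42 neighbouring measured genes of chromosome 6 from HLA-DRA to LEMD2 were all above background.

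Of 22 surface antigens that lymphoma therapies address, 18 were above background. Besides CD79B, CD22 and MS4A1 these were led by CXCR4 at 14.16, CD52, the target of alemtuzumab, at 13.71, CD70 at 12.11 and ROR1, an orphan receptor kinase, at 11.00. TNFRSF17 (BCMA) was at 9.91, CD47 at 9.02 and CD38 at 8.92. TNFRSF8 (CD30) gave 8.04, 8.09 and 8.15. The ligands of PD-1 were not above background. CD274 (PD-L1) gave 0, 1.66 and 0.74 on the brighter of its 2 probes, PDCD1LG2 (PD-L2) was not marked on any array, and neither was CCR4. The costimulatory ligand CD86 was at 8.46 and CD80 was dim at 2.84.

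Chemokine receptors were widely measured above background, and chemokines were dim. Of 24 chemokine and homing receptors 21 were above background, 12 at or above the median level. CXCR4, the receptor of the stromal chemokine CXCL12, was at 14.16 (SD 0.08), and CXCR5, which guides B cells into follicles, at 12.26. S1PR4 was at 12.75, CCR6 at 11.52 and the integrin chain ITGB2 at 11.04, while S1PR1 was at 2.86. Of 17 chemokines 7 were above background and none reached the median level. CCL3, CCL5 and CCL4, chemokines of activated lymphocytes, were at 6.83, 6.26 and 6.19, CXCL12 at 5.01, CCL19 at 4.21, CCL17 at 3.33 and CCL2 at 3.00. CCL20, CCL22, CXCL8, CXCL9, CXCL10, CXCL11, CXCL13 and XCL1 were not above background.

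Of 27 interleukins, interferons and related cytokines 10 were above background, or 37.0% against 72.2% of all named genes. This count depends on the mark required, since 21 of the 27, and 16447 of all 19740 genes, were positive and significant on all 3 arrays. LTB, the lymphotoxin of B cells, was at 10.43, IL23A at 9.81, IL16 at 8.21 and TGFB1 at 7.17. IL1B, EBI3 and IL32 lay between 4.57 and 5.12, and IL18 and LTA at 3.82 and 3.13. IL6, a cytokine that the study followed in co-cultures with stromal cells, was not above background, and neither were IL1A, IL2, IL4, IL7, IL9, IL15, IL17F, IL21, IFNB1 and IFNG. IL17A itself gave 4.45, 4.50 and 3.94 (mean 4.29, SD 0.31), above background on all 3 arrays but at the 14.7th percentile of such genes.

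Of 27 receptor genes for these cytokines 22 were above background. The common gamma chain IL2RG was at 10.78, IL4R at 9.75 and the interferon receptor chains IFNAR2, IFNGR2 and IFNGR1 at 10.04, 9.37 and 9.18. IL6R, the ligand-binding chain for IL-6, was not above background, while IL6ST, the signal chain gp130, was at 6.47 on the brightest of 7 probes, 6 of which were above background. IL1R1, IL2RB and IL18R1 were not above background either. The RNA of all 12 genes of the IL-17 receptor pathway was above background, with a median of 6.65. IL17RA, the shared receptor chain, gave 9.15, 9.15 and 9.12, and its 3 probes ranged from 7.59 to 9.14. IL17RC, with which it forms the IL-17A receptor, was dim at 4.33, 4.40 and 4.37. The adaptor TRAF3IP2 (ACT1) was at 6.15, TRAF6 at 7.15, and the kinase MAP3K7 (TAK1) with its partner TAB2 at 10.01 and 10.51.

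Signaling genes downstream were widely present. All 21 NF-kB genes measured were above background, 14 at or above the median level. RELB was at 12.58, REL at 11.05, NFKB1 at 9.50 and RELA at 8.10. The inhibitor NFKBIA, itself a target of the pathway, was at 10.38, and TNFAIP3 (A20), the deubiquitinase that ends signaling, gave 7.11, 7.12 and 7.08. Of 20 genes of Toll-like receptors and their adaptors 16 were above background. MYD88 gave 8.26, 8.24 and 8.11, the adaptor TICAM1 was at 10.75, TLR10 at 9.17 and TLR7 at 8.03. TLR2, TLR4, TLR8 and IRAK3, which are best known from myeloid cells, were not above background.

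Of 18 genes of the JAK, STAT and SOCS families 16 were above background. STAT6 was at 12.81, STAT5B at 11.21 and STAT2 at 11.19, while STAT3 was at 6.68 and JAK2 at 7.45. TYK2 was dim at 3.80, SOCS3 was marked on 2 arrays, and STAT4 was not above background. Of 21 genes of PI3K, AKT and mTOR signaling 20 were above background. PIK3R2 was at 11.35, PIK3CG at 10.50, AKT1 at 8.88 and AKT2 at 7.96. Of 28 receptor tyrosine kinases 16 were above background, and only ROR1 at 11.00, IGF1R at 9.93 and INSR at 9.79 reached the median level. ERBB4, KIT, FLT3, PDGFRA, KDR and ALK were not above background. Interferon-stimulated genes were above background in 15 of 20, with IFITM1 at 13.37 and ISG20 at 12.94, and OASL and IFI44L were not.

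**Figure D4:**
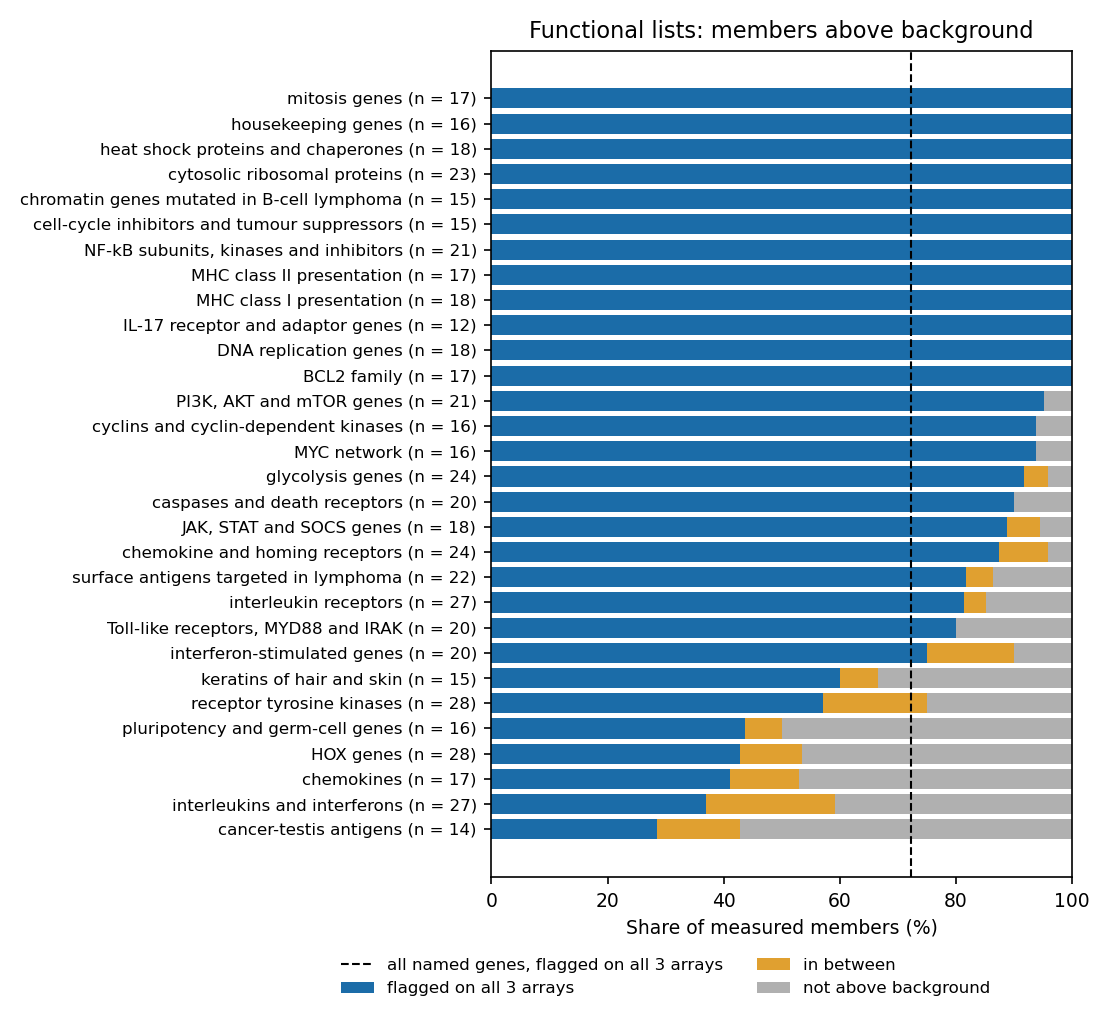
Share of measured members (x axis, %) that were above background on all 3 untreated arrays, in between or not above background, for the 30 functional lists (y axis, n measured). The dashed line marks 72.2%, the share of all named genes above background, and the lists run from 28.6% for cancer-testis antigens to 100% for 12 lists.

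Proliferation genes were bright. All 18 DNA replication genes were above background and 17 reached the median level. The helicase subunits MCM7 and MCM3 were at 14.49 and 13.13, TYMS, which makes thymidylate, was at 13.81 and the clamp PCNA at 12.83, while the loader CDC6 was at 4.62. All 17 mitosis genes were above background, CENPF at 12.42, BIRC5 (survivin) at 11.47, TOP2A at 11.24 and MKI67 at 7.68. Of 16 cyclins and cyclin-dependent kinases 15 were above background. CDK6 was at 12.69, CDK4 at 11.67, CCNB2 at 11.61 and CCNE1 at 11.18. Among the D-type cyclins CCND3 was at 9.32, CCND1 was dim at 3.58, and CCND2 was not above background.

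Cell-cycle inhibitors were present too. CDKN2A, which encodes p16 and p14ARF and is often deleted in lymphoma, gave 13.33, 13.34 and 13.28 on its brighter probe and 9.79 on the other. Its chromosomal neighbour MTAP gave 10.48, 10.51 and 10.55, with its other probes at 7.79 and 6.41. CDKN2C was at 12.16, RB1 at 11.74 and CDKN1A (p21) at 4.04. MYC gave 14.17, 14.16 and 14.17 (mean 14.17, SD 0.01) and stood at the 98.6th percentile of genes above background. In its network NPM1, NCL, FBL and ODC1, each known as a MYC target, were at 15.71, 14.72, 14.57 and 13.11, the partner MAX was at 10.61, and MYCN was not above background.

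All 17 genes of the BCL2 family were above background. The pro-apoptotic members HRK, BCL2L11 (BIM), BBC3 (PUMA), BIK and PMAIP1 (NOXA) lay between 11.02 and 11.65, BID and BAX were at 10.44 and 10.43, and BMF, BAD, BAK1 and BOK were lower, at 8.29, 8.19, 7.35 and 4.54. The anti-apoptotic members BCL2A1 and MCL1 were at 9.93 and 9.90, BCL2 at 8.30 and BCL2L1 at 6.41. These are the brightest probes, and other probes read lower in members of both kinds. They were at 7.58 and 6.25 for BCL2L11, 3.99 for BAX, 3.09 for BMF, 5.09 for BCL2A1 and 4.84 for BCL2. The other probe of BID was close, at 10.12. Of 20 caspases and death receptors 18 were above background, with CASP9 at 11.40, TNFRSF10B at 11.05 and FADD at 11.03, and CASP14 and FASLG were not. All 15 chromatin genes that are recurrently mutated in B-cell lymphoma were above background, led by SMARCA4 and MEF2B, both at 13.01, and followed by KMT2C at 11.82, EZH2 at 11.31, KMT2D at 10.45, EP300 at 10.09 and CREBBP at 8.96.

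Ribosomal genes were the brightest of all. All 81 cytosolic ribosomal protein genes measured were above background, with a median level of 15.54, and they filled 13 of the 20 brightest places among named genes. RPLP2 had the highest level, 16.67, and RPL19 followed at 16.41. Their SD of 0 comes from quantile normalization, which gives probes of the same rank on every array the same value, and not from equal measurements. Many ribosomal genes have processed pseudogenes whose transcripts a probe may share. The other bright places were held by the histone gene H4C3 at 16.24, FUT6, SLC66A1, ZNF865, C1orf198, GPR155 and LINC00265. Several of these rested on 1 probe of a gene. FUT6, a fucosyltransferase, was at 16.32 on one probe and at 1.99 on the other, marked on 1 array. ZNF865 was at 16.03 and 5.94, and GPR155 at 15.99, 7.55 and 6.52.

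Metabolic and housekeeping genes were close behind. All 16 housekeeping genes reached the median level, with a median of 13.26 and a median SD of 0.03. GAPDH gave 14.72, 14.65 and 14.59, ACTB was at 15.88, EEF1A1 at 15.95 and the basal factor TBP at 9.16. Of 24 glycolysis genes 22 were above background, LDHB at 15.13, LDHA at 14.43, ENO1 at 13.96, HK2 at 12.76 and the glucose transporter SLC2A1 at 12.31, while HK3 was not above background. The 36 genes of complex I of the respiratory chain and the 77 mitochondrial ribosomal protein genes were all above background, with medians of 11.58 and 10.93. All 18 heat shock proteins and chaperones were above background, HSPD1 at 14.96, HSPB1 at 14.85 and HSP90AA1 at 14.83, with the stress-inducible HSPA6 and HSPA1A at 5.22 and 2.90.

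In the lists for the germ line, the embryo and differentiated skin, fewer members were above background than the 72.2% of all named genes. These counts depend on the mark required. With the positive-and-significant mark alone, 18 of 28 HOX genes and 10 of 16 pluripotency and germ-cell genes passed. So did 12 of 15 keratin and cornification genes and 16447 of all 19740 named genes. Of 14 cancer-testis antigens 4 were above background, or 9 with the positive-and-significant mark alone. The 4 were CTAG2, MAGEC1, MAGEB2 and MAGEA6, all at a level under 4, and MAGEA1, MAGEA4, MAGEA10, MAGEA12, SSX1, PAGE1, PRAME and CTCFL were not. Of 28 HOX genes 12 were above background. HOXC4 at 11.63 stood apart, HOXB4 was at 8.10, and the others lay between HOXA5 at 6.91 and HOXC13 at 3.37. HOXA11, HOXA13, HOXB6, HOXB9, HOXB13, HOXC8 and HOXC10 were among the 13 that were not above background.

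Of 16 pluripotency and germ-cell genes 7 were above background. POU5F1 was at 8.29 on the brighter of 2 probes, and it has expressed pseudogenes that such a probe may read. PRM1 was at 4.57, NANOG at 4.31, CRIPTO at 3.89, and SYCP1, SYCP3 and PIWIL2 lay between 2.79 and 3.13. SOX2, LIN28B, DPPA4, ZFP42, DDX4, DAZL, PIWIL1 and TNP1 were not above background. Of 15 keratin and cornification genes 9 were above background, KRT10 at 10.95 and KRT81 at 10.78 (SD 0.26) being the bright ones, and KRT1, KRT2, KRT6A, KRT17 and IVL were not.

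Gene families, read from symbols, ranged widely. Of 354 olfactory receptor genes 74 (20.9%) were above background and 237 were not, and of the 74 only 5 reached the median level. Of 57 protocadherin genes 19 (33.3%), of 92 potassium channel genes 31 (33.7%) and of 36 defensin genes 10 (27.8%) were above background. Zinc finger genes named ZNF were above background in 408 of 488 (83.6%). By RefSeq biotype, 13383 of 18150 protein-coding genes (73.7%) and 495 of 1034 long non-coding RNA genes (47.9%) were above background. Along the chromosomes, the longest unbroken run of measured genes above background held 48 genes of chromosome 19, from ELOF1 to DAND5, many of them zinc finger genes. The longest run of genes not above background held 13 genes of chromosome 11, 12 of them olfactory receptors and the other LRRC55. A run of 12 on chromosome 6, from C6orf141 to PKHD1, included sperm and defensin genes beside others such as RHAG, TFAP2D and TFAP2B.

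The 3 cultures differed little from each other. Over probes above background, Pearson's r between arrays was 0.997 to 0.998 across probes, which are not independent replicates. The median SD of genes above background was 0.06 log2 units, and 90.3% of them had an SD under 0.2. The spread depended on the level, with a median SD of 0.20 under a level of 4, 0.08 from 4 to 8, 0.05 from 8 to 12 and 0.04 at 12 or more.

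A few bright genes went against this. Among genes with a level of at least 8, GAS7, a growth-arrest gene of the cytoskeleton, had the largest SD, with 8.78, 11.34 and 11.07 on arrays 1 to 3. ACP4, an acid phosphatase, gave 12.22, 10.47 and 11.77, and CTSZ, the lysosomal protease cathepsin Z, gave 7.78, 8.78 and 9.55. RNA18SN5, the 18S ribosomal RNA, gave 13.88, 13.43 and 12.60. DPYSL4, TIGD5, ATP5IF1, GRM5, NPM3 and LINC01002 had SDs between 0.50 and 0.70. Array 1 was the lowest of the 3 for GAS7, CTSZ, DPYSL4, ATP5IF1, GRM5, NPM3 and LINC01002. Each of the 10 rested on the brightest probe of its gene, and for GRM5, a glutamate receptor, the second probe was not above background. The second probe of ATP5IF1 gave 11.66, 11.58 and 11.67 (SD 0.05), and that of DPYSL4 gave 5.09, 5.18 and 4.99 (SD 0.09). Neither of these second probes had its lowest value on array 1.

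**Figure D5:**
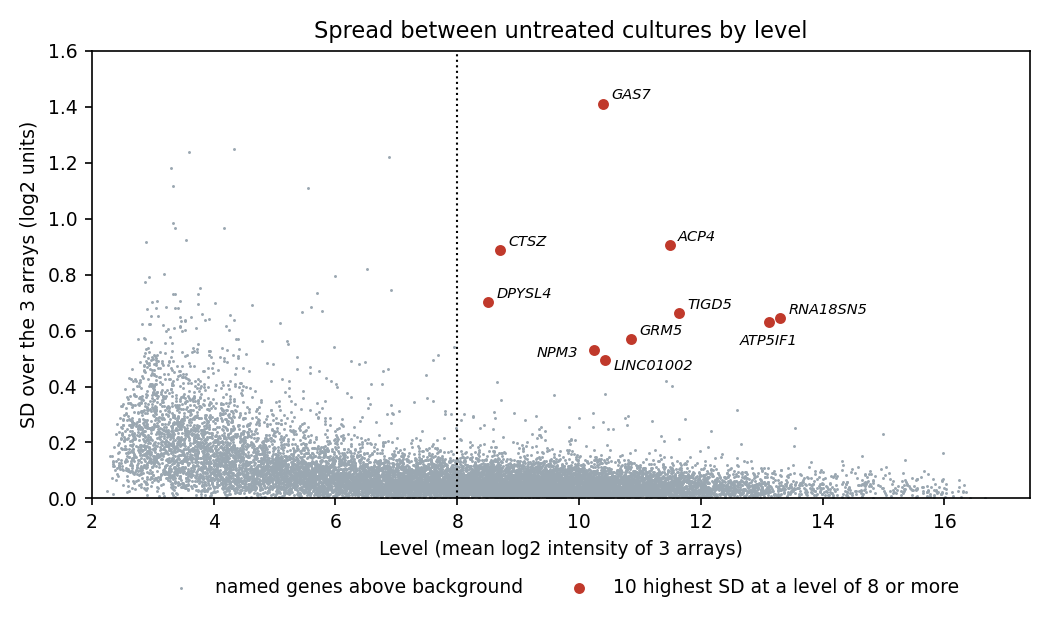
SD over the 3 untreated arrays (y axis, log2 units) by level (x axis, mean log2 intensity) for the 14252 named genes above background, with the 10 genes of largest SD at a level of 8 or more in red. The cloud narrows from a median SD of 0.20 under a level of 4 to 0.04 at 12 or more, and GAS7 lies highest at 1.41.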

How the data were processed

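Total RNA of the 3 untreated cultures had been amplified and labeled with Cy3 by the authors, 1 array per culture. The deposited files hold, per spot, an intensity that Agilent Feature Extraction 11.0.1.1 had background-subtracted, and detection flags of 0 or 1. A series table of deposited log2 values, quantile normalized by the authors, served as an alternative. The arrays of the treated cultures were not used here. All 3 untreated arrays shared a scan.

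Control spots and spots marked as non-uniform (4, 6 and 25 per array) were left out. Intensities under 1 were set to 1, and the 43118 spots were averaged to 34127 probes on the log2 scale, 1 of which had no usable spot. A probe with several spots carried a flag on an array when a share of at least 0.5 of them did. The arrays were quantile normalized (Python 3.11.15, numpy 2.4.6, pandas 2.3.3). With 3 arrays, their number limits the precision. The 25771 probes with 1 gene name, of 19740 genes, were named through their RefSeq accession (GRCh38.p14), and 4603 probes above background have no such name. A gene's level is that of its brightest probe above background. The normexp alternative used limma 3.58.1 in R 4.3.3.

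No test was run. Members and gene lists were chosen with earlier results of these data known, and 19 of 809 listed genes, among them LYZ, NFKB2 and ALDOA, were not matched. Named genes are 27 fixed ones, the up to 6 brightest members of each list and the first 8 that were not above background, the 20 brightest genes, the 10 of largest SD at a level of at least 8, and the members above background of sparse lists. Other members, the gene families, the neighbouring genes and the octamer, after other motifs, were picked once values had been seen. Some genes that the rule names are not reported here. A comparison of promoters between genes above and not above background was void, since 77.7% of named genes, under 80%, had a window. The procedure was tested on simulated data. Alternatives changed the flags, the normalization, the background correction, the floor, the probe of a gene and the arrays used.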

Additional observations from a re-analysis of the deposited data

How the results depend on the processing

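Under the 5 other rules for flags and spots, and without each array in turn, genes above background numbered between 14222 and 16447, against 14252, and probes between 22878 and 27303, against 22911. With the positive-and-significant flag alone, 4 of the 45 lists moved by over 1.5 times: members above background rose from 4 to 9 in the cancer-testis list, from 10 to 21 in the interleukin and interferon list, from 5 to 9 in the neuronal and glial list and from 7 to 12 in the mesenchymal list. No list moved so far under the other rules or without an array. The median absolute difference between arrays over probes above background, averaged over the pairs of arrays, was 0.0828 log2 units. It came to 0.140 without normalization and to 0.0534 with normexp, whose offset of 50 compresses dim signals. Of the 27 fixed genes, 23 moved by more than their SD with normexp, by up to 5.64 log2 units for those near the floor, 21 with the authors' series values, and none with scaling to the 75th percentile. Under the median over a gene's probes 6 moved by more than their SD, and the most affected fell by 2.72. Leaving out array 1, 2 or 3 moved 12, 11 and 5 of them by more than their SD, though by at most 0.40. The other settings for promoters were not run, as their comparison was void. No paired analysis was possible because the values come from 1 group with no comparison and no test.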
